A study of Mus musculus with 3 samples.

Results

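The immediate-early genes described here across the cell clusters of the embryonic mouse forelimb are Fos, Fosb, Jun, Junb, Jund, Egr1, Ier2 and Atf3. They were chosen by name, as 8 of the 15122 genes in the deposited count matrix, and all 8 had counts. Forelimbs of wild-type embryos (genotype label Wild Type) gave 3 droplet single-cell RNA libraries, each from 1 reaction. Embryos of the strain c57bl6.J were taken at E9.5 (B6_E9.5) and at E10.5 (B6_E10.5), and embryos of 129S6.sv at E9.5 (129_E9.5), counted in days of gestation. The labels list no transgene, deletion or treatment in any group, and do not say how many embryos entered a reaction. All tissue was digested with trypsin-EDTA for 10 min at 37 °C before the droplets were made. Unique molecular identifiers (UMIs) were counted per cell, so that PCR copies of 1 molecule count once, and each level below is a gene's UMIs scaled to 1000000 UMIs of the same cluster and library (CPM). Counts of 3′ ends do not scale with transcript length, but capture can differ by gene, so levels are compared mainly within a gene. Where 3 values follow each other with no library named, B6_E9.5 comes first, then B6_E10.5, then 129_E9.5.

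Immediate-early genes are transcribed within minutes of a stimulus without new protein synthesis, from promoters already loaded with factors such as SRF and CREB. Growth factors acting through ERK do this in the embryo, and so do wounding, stress and the enzymatic dissociation of a tissue into single cells, which is why these transcripts are also read as a trace of cell handling. Fos and Fosb encode FOS proteins that bind DNA only as partners of JUN proteins, in the AP-1 dimer; Jun, Junb and Jund encode the JUN side. Egr1 encodes a zinc-finger factor induced through SRF, Ier2 a small nuclear protein, and Atf3 a stress-induced factor of the ATF and CREB family. Of this set, Jund is known to be expressed without stimulation in many cell types.

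The authors sorted the 43950 cells into 5 clusters. Among the 10 genes that led each cluster by fold were 5 markers of limb mesenchyme, 7 of ectoderm including the apical ectodermal ridge, 6 of muscle progenitors, 4 of endothelium and 9 of erythroid cells in their own clusters, with at most 1 marker of any other list. These clusters held 34236, 3288, 2430, 2015 and 1981 cells. The libraries held 12773 to 18957 cells and between 93029510 and 124388358 UMIs, with median depths of 5710 to 7623 UMIs a cell. Barcodes of 1728 cells occurred in more than 1 library and were kept apart by library. Some clusters were mixed or uneven. In the endothelium cluster, macrophage and other myeloid markers summed to 1799 CPM in B6_E10.5 and to 41.2 and 27.3 CPM in the E9.5 libraries of c57bl6.J and 129S6.sv. In the muscle progenitor cluster, neuron markers reached 1059 CPM in 129_E9.5, with 52.7 and 27.9 CPM in B6_E9.5 and B6_E10.5. In the erythroid cluster, B6_E9.5 cells had a median of 735 UMIs against 14608 and 12004 in B6_E10.5 and 129_E9.5. Haemoglobin made up 31.9% of that cluster's UMIs in B6_E9.5, and 51.3% and 52.1% in B6_E10.5 and 129_E9.5.

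The promoter sequences of 4 members are shown because the short elements that link these genes to signalling lie next to the start of transcription. The RefSeq promoter table, on GRCm38.p6, held 6 of the 8 members (all but Egr1 and Ier2). It was searched on both strands, in the 250 bases before each start, for the CRE core TGACGT bound by CREB and ATF proteins, the full CRE TGACGTCA (which contains the core), the AP-1 site TGAGTCA, the AP-1-like site TGACATCA, the TATA sequence TATAAA, the CCAAT box and the CArG box bound by SRF. Each line gives the 150 bases that end 1 base before the start, 5′ to 3′ on the gene's strand, with the CRE core on either strand, the TATA sequence and the AP-1-like site in capitals.
Fos, chr12:85473740-85473889, plus strand: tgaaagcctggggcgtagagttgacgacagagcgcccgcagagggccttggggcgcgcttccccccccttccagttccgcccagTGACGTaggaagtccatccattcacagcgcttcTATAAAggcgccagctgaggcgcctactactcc
Jun, chr4:95052223-95052372, minus strand: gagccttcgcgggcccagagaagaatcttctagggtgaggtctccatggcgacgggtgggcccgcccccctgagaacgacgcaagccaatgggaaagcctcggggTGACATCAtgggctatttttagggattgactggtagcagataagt
Junb, chr8:84978749-84978898, minus strand: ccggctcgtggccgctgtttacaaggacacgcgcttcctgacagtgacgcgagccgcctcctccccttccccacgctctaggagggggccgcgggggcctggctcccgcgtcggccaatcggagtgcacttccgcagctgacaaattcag
Atf3, chr1:191183334-191183483, minus strand: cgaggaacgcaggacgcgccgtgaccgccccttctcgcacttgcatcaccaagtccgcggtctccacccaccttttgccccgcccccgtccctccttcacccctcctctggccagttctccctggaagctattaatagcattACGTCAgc
The CRE core began 66 bases before the Fos start and 8 bases before the Atf3 start, and 6.47% of 32851 mouse promoters held it. The Jun promoter held TGACATCA 45 bases before its start, a sequence found in 2.93% of promoters, and the Fos promoter held TATAAA at 33 bases, found in 12.4%. CCAAT lay 65 bases before the Jun start and 36 bases before the Junb start, and 33.8% of promoters held it. The letters of TGACGTCA (1.55% of promoters), of TGAGTCA (4.46%) and of the CArG box (1.47%) were not found in these windows of the 6 members. The RefSeq start of Atf3 lies inside the gene as GENCODE draws it, so the window shown is that of 1 of its starts. The Jund window ended at 70697738 on chromosome 8, upstream of the GENCODE start at 70698949. The bases next to that GENCODE start were thus not searched. A match is a description of the sequence and not evidence of binding.

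Fos, the founding member of the FOS family, lies on chromosome 12 from 85473890 to 85477273 (plus strand, GENCODE M21 on GRCm38) and gave 2541 UMIs in 1733 cells. In the endothelium cluster it stood at 9.58, 84.9 and 43.3 CPM across B6_E9.5, B6_E10.5 and 129_E9.5. In mesenchyme, the cluster with the lowest mean, the same libraries gave 1.61, 1.57 and 9.37 CPM. Endothelium was thus the highest cluster by mean (45.9 ± 37.7 CPM, SD, n = 3 libraries) and mesenchyme the lowest (4.18 ± 4.49), but the spread over libraries was as wide as the gaps, and each cluster's range overlapped that of its neighbour in the order. Erythroid cells ranged from 3.19 CPM in B6_E10.5 to 49.6 CPM in 129_E9.5, muscle progenitors from 3.26 to 27.0 CPM in the same libraries, and ectoderm from 5.68 CPM in B6_E9.5 to 18.03 CPM in 129_E9.5. Fosb, the second FOS gene (chromosome 7, 19302696 to 19310051, minus strand), was sparse, with 293 UMIs in 261 cells. Its level in endothelium was 3.27, 5.43 and 7.30 CPM across B6_E9.5, B6_E10.5 and 129_E9.5. That range did not overlap that of ectoderm, the next cluster, which reached 1.74 CPM at most. Erythroid cells held 1, 0 and 9 Fosb UMIs, too few for an order.

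Among the JUN genes, Jun (chromosome 4, 95049034 to 95052222, minus strand, 10778 UMIs) had its highest level in the endothelium cluster, at 103, 133 and 178 CPM across B6_E9.5, B6_E10.5 and 129_E9.5. Muscle progenitors followed with 33.5, 42.7 and 126 CPM, where 129_E9.5 alone reached into the endothelial range. Jun in mesenchyme was at 12.4, 39.9 and 24.7 CPM, and in ectoderm at 12.4, 29.8 and 37.6 CPM. Those clusters overlapped almost wholly, and erythroid cells, at 7.74 to 16.3 CPM, were lowest by mean though not in B6_E9.5. Junb (chromosome 8, 84974484 to 84978718, minus strand, 5529 UMIs) was also highest by mean in endothelium, at 40.7, 87.0 and 83.9 CPM. Its level in muscle progenitors was 62.6, 2.93 and 70.4 CPM across B6_E9.5, B6_E10.5 and 129_E9.5, so the E9.5 libraries stood together and the E10.5 library far below. Mesenchyme stood at 10.3, 8.59 and 19.0 CPM for the same gene. Jund (chromosome 8, 70698949 to 70700616, plus strand, 58282 UMIs), the JUN gene least tied to stimulation, was found at a high level in each cluster. It stood at 178, 221 and 228 CPM in muscle progenitors and at 134, 252 and 169 CPM in mesenchyme, across B6_E9.5, B6_E10.5 and 129_E9.5. Only the erythroid range, 42.5 to 62.3 CPM, lay apart from its neighbour in the order, ectoderm (67.8 to 139 CPM).

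Egr1 (chromosome 18, 34859823 to 34864984, plus strand, 3209 UMIs) was lowest in mesenchyme, at 3.88, 1.38 and 10.53 CPM across B6_E9.5, B6_E10.5 and 129_E9.5. The mesenchymal range did not overlap that of ectoderm, at 13.6, 15.9 and 41.3 CPM. Muscle progenitors had 37.6, 10.3 and 55.7 CPM, with the E10.5 library lowest. Endothelium turned this order, with 11.6, 41.1 and 48.1 CPM in those libraries. Ier2 (chromosome 8, 84661331 to 84662852, minus strand) gave 78577 UMIs in 29340 cells and was found in every cluster. Mesenchyme had 182, 246 and 318 CPM of Ier2, and muscle progenitors had 292, 176 and 440.1 CPM. Apart from erythroid cells (115, 18.5 and 114 CPM), the ranges of neighbouring clusters overlapped for Ier2. Atf3 (chromosome 1, 191170296 to 191218039, minus strand, 830 UMIs) encodes the stress-induced factor and was highest in endothelium, with no overlap with another cluster. In endothelium it stood at 29.6, 15.7 and 32.7 CPM, and in muscle progenitors, the next cluster, at 4.37, 0.334 and 2.59 CPM. Atf3 levels were 2.02, 0.220 and 1.45 CPM in mesenchyme, and erythroid cells held 6, 0 and 3 UMIs. The clusters were made from these same counts, so no cluster was tested against another.

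**Figure D1:**
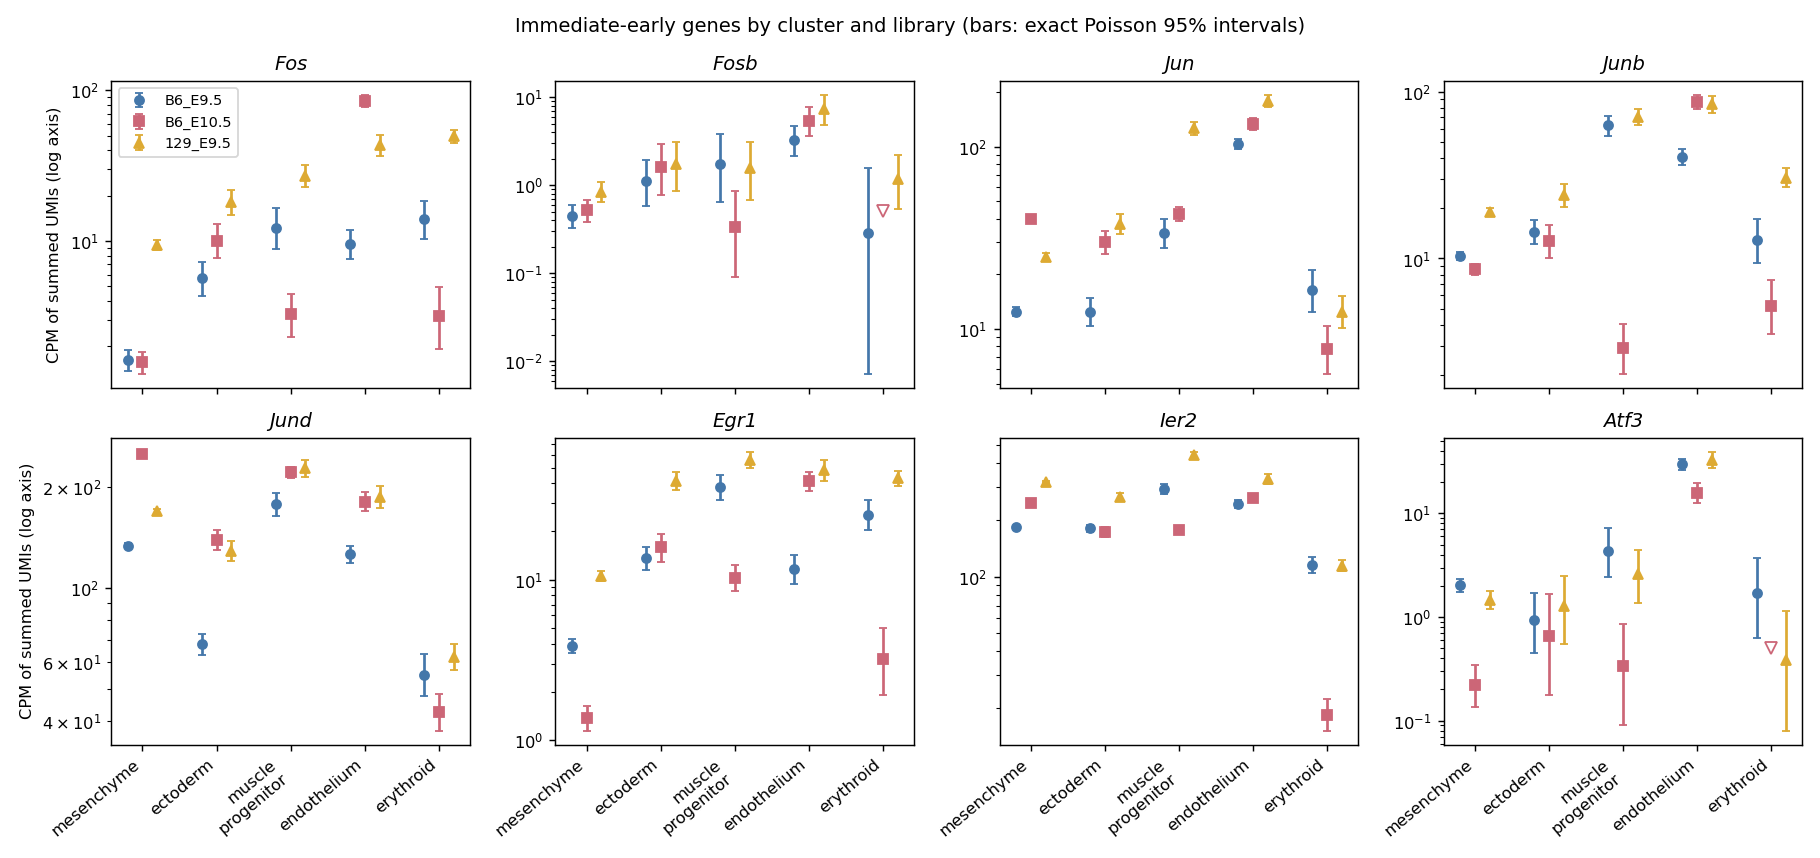
Level of each member (CPM, log axis) in the 5 clusters, with 1 point for each library and bars for exact 95% Poisson intervals, which cover counting error only; open triangles stand at the level that 3 UMIs would give where none was found. Atf3 lies between 15.7 and 32.7 CPM in the endothelium cluster and at or under 4.37 CPM elsewhere, and Junb in muscle progenitors lies at 62.6 and 70.4 CPM at E9.5 and at 2.93 CPM at E10.5.

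At least 1 Atf3 UMI was found in 20.1%, 9.48% and 20.1% of endothelium-cluster cells from B6_E9.5, B6_E10.5 and 129_E9.5, against 1.98%, 0.131% and 1.07% of mesenchymal cells. After thinning each cell to 2000 UMIs, which leaves out shallower cells, the endothelial shares were 5.63%, 3.76% and 5.81% and the mesenchymal shares 0.501%, 0.0292% and 0.323%. The median depths behind these were 7138.5, 6467 and 7383 UMIs in endothelium and 8067, 5422 and 7463 UMIs in mesenchyme, so endothelial cells were not deeper in 2 of the 3 libraries. Fos UMIs were found in 5.41%, 20.7% and 20.3% of endothelium-cluster cells and in 1.45%, 0.907% and 5.91% of mesenchymal cells. The thinned Fos shares were 1.09%, 12.4% and 8.47% against 0.301%, 0.365% and 1.87%. No cluster is known to lack Fos, and the mesenchymal share is given for comparison. In erythroid cells the depth mattered more: Fos was found in 3.36%, 4.74% and 34.2% of cells at median depths of 735, 14608 and 12004 UMIs, and in 2.55%, 0.256% and 11.8% of the thinned cells. The thinned share in B6_E9.5 rests on 157 cells, since 83.5% of that cluster had under 2000 UMIs. Junb in muscle progenitors was found in 34.0%, 2.20% and 34.6% of cells, and in 7.81%, 0.954% and 11.9% after thinning. Ier2 was found in 59.9%, 64.6% and 83.2% of mesenchymal cells, and in 28.5%, 36.5% and 45.9% after thinning. No Atf3 UMI was found in the 401 erythroid cells of B6_E10.5, and 3 cells of that number, the limit set for a count of 0, are 0.748%. The exact Clopper-Pearson upper bound is 0.916%.

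The 8 genes together made up between 80.4 CPM (erythroid cells of B6_E10.5) and 951 CPM (muscle progenitors of 129_E9.5). Of the members' UMIs in a cluster and library, Ier2 held 23.0% to 60.8% and Jund 19.9% to 52.9%, so that their sum mostly follows these 2 genes. Fos held 0.285% to 15.8% and Egr1 0.251% to 13.7%, both highest in the erythroid cells of 129_E9.5. The summed level of the 8 was highest in 129_E9.5 in 5 of 5 clusters, as was the level of Egr1. In mesenchyme the summed levels of 129_E9.5 (554 CPM, 548 to 559) and B6_E10.5 (550 CPM, 545 to 555) had overlapping counting intervals. Fos, Fosb, Junb and Ier2 were highest in 129_E9.5 in 4 of 5 clusters, and Jun and Jund in 3 of 5. Atf3 differed from the other members in being highest in B6_E9.5 in 3 of 5 clusters. It was lowest in B6_E10.5 in 5 of 5, where Junb was lowest in 4 of 5 and Fos, Egr1 and Ier2 in 3 of 5. Some of these Atf3 ranks rest on few UMIs: 10, 4 and 8 in ectoderm, 15, 4 and 13 in muscle progenitors and 6, 0 and 3 in erythroid cells. Some Fosb ranks do too: 12, 10 and 11 UMIs in ectoderm, 6, 4 and 8 in muscle progenitors and 1, 0 and 9 in erythroid cells.

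The stage comparison set B6_E10.5 over B6_E9.5. With 1 library at each stage there is no replicate check and no test, and intervals on ratios cover counting error only. In mesenchyme Jun was 3.22-fold higher at E10.5 (95% interval 3.01 to 3.43) and Jund 1.88-fold higher (1.84 to 1.92). Egr1 stood at a ratio of 0.355 (0.288 to 0.436) and Atf3 at 0.109 (0.0652 to 0.173), while the ratio of Fos, 0.969, had an interval that included 1 (0.768 to 1.22). Jun and Jund were higher at E10.5 in mesenchyme, ectoderm, muscle progenitors and endothelium and lower in erythroid cells, each with an interval that excluded 1. In muscle progenitors Junb, Fos, Egr1 and Atf3 were lower at E10.5, with ratios of 0.0467 for Junb (0.0317 to 0.0670), 0.266 for Fos (0.168 to 0.422), 0.274 for Egr1 (0.212 to 0.353) and 0.0765 for Atf3 (0.0185 to 0.240). Endothelium went the other way for Fos, Egr1 and Junb. There Fos was 8.86-fold higher at E10.5 (6.96 to 11.4), and 3.96-fold in cells with endothelial markers alone. Cells with macrophage markers held 332 of the 438 Fos UMIs of B6_E10.5. Egr1 was 3.53-fold higher (2.76 to 4.54) and Junb 2.14-fold (1.85 to 2.47), with Atf3 at a ratio of 0.531 (0.407 to 0.685). In ectoderm Fos was 1.77-fold (1.22 to 2.56) and Jun 2.41-fold higher (1.92 to 3.04). In erythroid cells Ier2 stood at a ratio of 0.161 (0.129 to 0.199) and Egr1 at 0.126 (0.0724 to 0.208). Atf3 had 0 against 6 UMIs there, and came out 3.39-fold lower with the 0 set to 3 UMIs. That figure takes the 6 UMIs as exact and is not a lower bound. Erythroid sums of B6_E9.5 held more limb mesenchyme markers than those of B6_E10.5 (234 against 90.1 CPM). Endothelial markers did the same (81.0 against 13.3 CPM). Muscle progenitor (4.56 against 6.56 CPM), neuron (6.27 against 9.58 CPM) and macrophage markers (0.570 against 1.85 CPM) went the other way. The part of such markers in the erythroid ratios was not tested.

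By size, a gene was counted when its levels were at least 2-fold apart and the higher library had 50 CPM and 20 UMIs or more. In mesenchyme 0 of the 2 members that reached this level were counted, where 7.24% of all such genes were. In ectoderm Jund was counted as higher (2.05-fold), with 2.38% of genes, a call that ended with TMM factors (1.99-fold) and with cells of at most 5% mitochondrial UMIs (1.97-fold). In muscle progenitors Junb was counted as lower, with 3.72% of genes. In endothelium Fos and Junb, of 5 members that reached the level, were counted as higher, with 3.86% of genes. In erythroid cells Ier2 was counted as lower, where 18.4% of all such genes were: the median log2 ratio of all genes was -0.60 in that cluster, and the members' ratios are read against it. With scaling factors that correct for such a shift (TMM), the erythroid stage ratios were 0.258 for Ier2, 0.203 for Egr1 and 0.368 for Fos, and that of Jund turned from 0.773 to 1.24. Without haemoglobin and mitochondrial genes in the total, Jund stood at 1.07. Asking for only 10 CPM and 10 UMIs let in the lower members. Counted then were Jun in mesenchyme (1 of 4, where 9.30% of genes were counted either way), Jun and Jund in ectoderm (2 of 6, against 5.61%) and Fos, Junb and Egr1 in muscle progenitors (3 of 6, against 9.62%). In endothelium they were Fos, Junb and Egr1 (3 of 7, against 10.3%), and in erythroid cells Fos, Jun, Junb, Egr1 and Ier2, all lower (5 of 6, against 25.5%).

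The strain comparison set 129_E9.5 over B6_E9.5 and shares the latter library with the stage comparison. Fos was higher in 129_E9.5 in each of the 5 clusters, by 5.80-fold in mesenchyme (4.87 to 6.94), 4.52-fold in endothelium (3.43 to 5.99), 3.55-fold in erythroid cells (2.63 to 4.88), 3.18-fold in ectoderm (2.31 to 4.41) and 2.21-fold in muscle progenitors (1.55 to 3.20). Egr1 was higher in each as well, from 1.48-fold in muscle progenitors (1.20 to 1.84) to 4.14-fold in endothelium (3.21 to 5.36). Jun was 3.75-fold higher in muscle progenitors (3.07 to 4.62), 3.04-fold in ectoderm (2.45 to 3.79) and 1.99-fold in mesenchyme (1.85 to 2.15). In erythroid cells the ratio of Jun was 0.765, with an interval that included 1 (0.545 to 1.08). Ier2 was 1.36-fold to 1.75-fold higher in the other clusters, and its erythroid ratio was 0.991 (0.880 to 1.12). All genes had a median log2 ratio of -0.45 in erythroid cells, and with TMM factors the erythroid ratio was 1.54 for Ier2 (1.37 to 1.73), 1.19 for Jun (0.846 to 1.68), 5.51 for Fos and 2.02 for the sum of the members. Atf3 did not follow the set: its interval lay above 1 in 0 of 5 clusters, and in mesenchyme its ratio was 0.718 (0.560 to 0.916). The 8 summed were between 1.30-fold (erythroid cells, before TMM) and 1.75-fold (ectoderm) higher in 129_E9.5. Strain and reaction cannot be told apart, since each library was 1 reaction.

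Among genes of at least 50 CPM, Jun was counted as at least 2-fold higher in the muscle progenitors of 129_E9.5, with 3.54% of genes, and Junb in endothelium (2.06-fold), with 2.09%, a call that ended with TMM factors (1.96-fold). In mesenchyme, ectoderm and erythroid cells 0 of 2 members each were counted, against 5.97%, 4.14% and 18.7% of genes either way. Fos and Egr1 sit under 50 CPM there and are left out by this count. With 10 CPM and 10 UMIs, Egr1 was counted as higher in mesenchyme (1 of 5, against 6.74% of genes either way), Fos, Jun and Egr1 in ectoderm (3 of 6, against 5.79%), and Fos and Jun in muscle progenitors (2 of 6, against 10.9%). Fos, Junb and Egr1 were counted in endothelium (3 of 7, against 7.40%), and Fos and Junb in erythroid cells (2 of 6, against 23.8%). The median log2 strain ratio over the members that had enough UMIs was 0.89 in mesenchyme, 0.93 in ectoderm, 0.57 in muscle progenitors, 0.91 in endothelium and 0.47 in erythroid cells. A list of 36 other immediate-early genes, among them Ier5, Btg1, Btg2 and Dusp1, had medians of -0.19, -0.09, -0.25, -0.00 and -0.59 in the same clusters. Over all genes tested the medians were 0.08, 0.08, 0.06, 0.04 and -0.45. Of that list, Btg2 and Dusp1 were at least 2-fold higher in endothelium, Dusp1 was higher and Btg1 lower in erythroid cells, and none was counted in the remaining clusters, where 5, 6 and 5 members reached the level. Of the genes of heat shock and dissociation stress, 11 reached 50 CPM in each cluster. The chaperone gene Hsp90ab1 was counted as higher in mesenchyme, muscle progenitors and endothelium, and Hspb1 in ectoderm. Their medians were 0.48, 0.02, 0.36, 0.20 and -0.27. Feedback genes of ERK signalling had medians of -0.03, -0.78, -0.29 and -0.17 in mesenchyme, ectoderm, muscle progenitors and endothelium, with Spry2 counted as lower in ectoderm and muscle progenitors and Spry1 in ectoderm. Levels set by the embryo and levels set during dissociation cannot be told apart in these libraries.

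**Figure D2:**
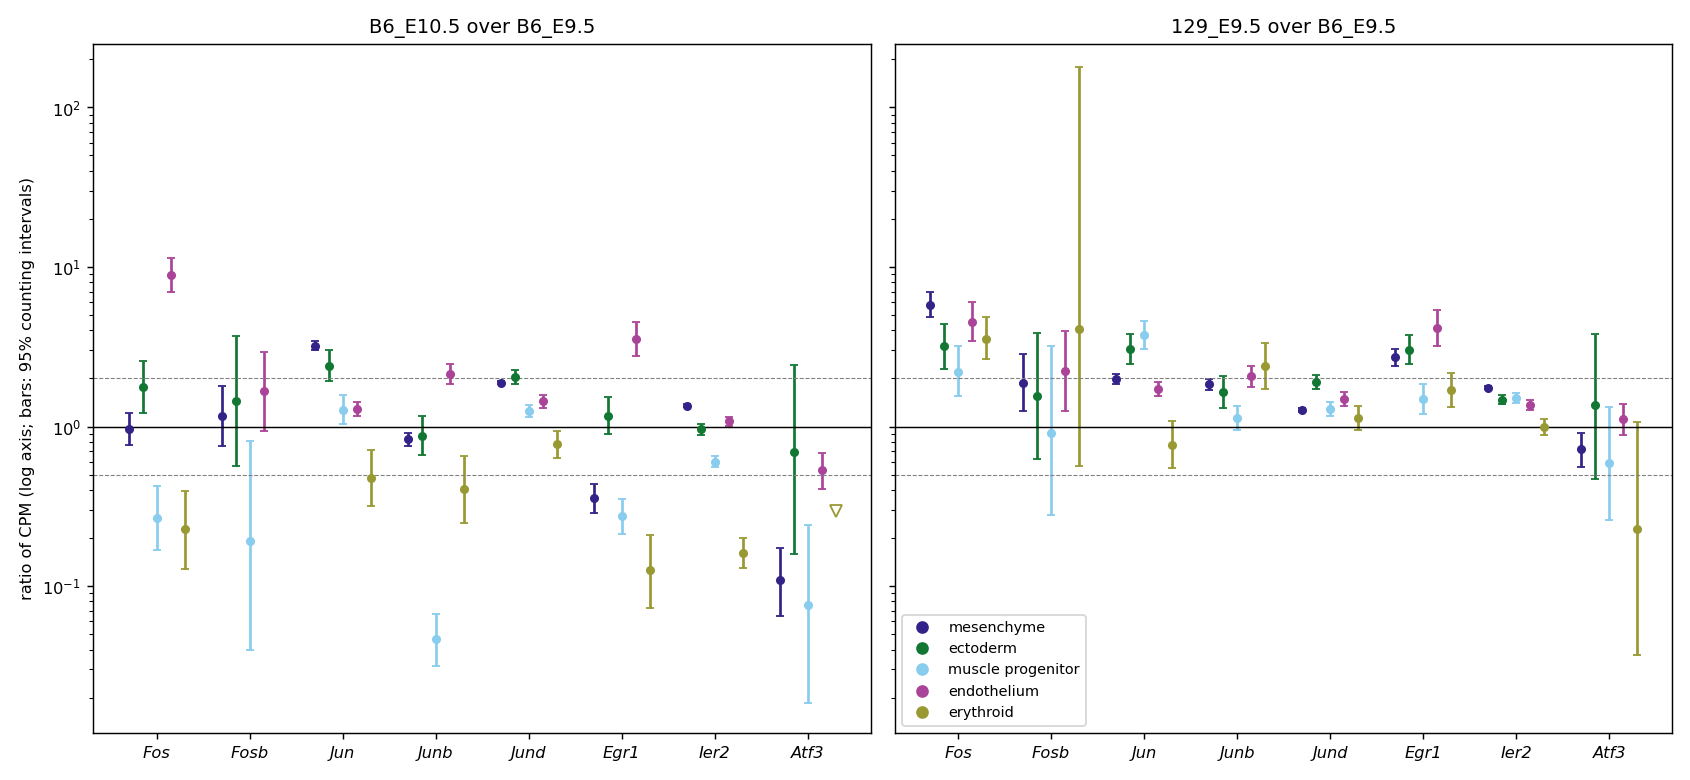
CPM ratio of each member in each cluster (log axis), B6_E10.5 over B6_E9.5 in one panel and 129_E9.5 over B6_E9.5 in the other, with exact 95% intervals for counting error, dashed lines at 2-fold and an open triangle for a bound. By stage the ratios of Junb run from 0.0467 to 2.14 and those of Fos from 0.229 to 8.86 (3.96 in endothelial-marker cells), and by strain the intervals of Fos and Egr1 lie above 1 in 5 of 5 clusters.

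The endothelium cluster of B6_E10.5 held more than 1 cell type, and Fos was uneven among them. Of its 707 cells, 125 had UMIs of at least 3 of 6 macrophage markers, and 338 had at least 3 of 7 endothelial markers with fewer than 3 of the other lists. A further 44 had at least 3 of 5 neural crest markers and 27 at least 3 of 5 megakaryocyte markers. The macrophage-marker cells held 332 of the 438 Fos UMIs and stood at 356 CPM (95% interval 319 to 397), with a Fos UMI in 64.8% of cells. Cells with endothelial markers stood at 28.8 CPM (23.1 to 35.6), and both the megakaryocyte-marker and the neural crest-marker cells held 2 Fos UMIs. Macrophage-marker cells also had 77.3 CPM of Egr1 and 152 CPM of Jun, against 33.5 and 128 CPM in the endothelial-marker cells. Junb went the other way, at 74.1 against 113 CPM, and so did Ier2, at 199.7 against 320.0 CPM. Only 6 cells of B6_E9.5 and 0 of 129_E9.5 passed the macrophage rule, so that these values have no counterpart at E9.5.

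In the endothelial-marker cells alone, Fos was at 7.28, 28.8 and 44.8 CPM across B6_E9.5, B6_E10.5 and 129_E9.5. The stage ratio of Fos was then 3.96 in place of 8.86, and the strain ratio 6.15 in place of 4.52. Egr1 stood at 10.8, 33.5 and 52.7 CPM and Junb at 39.7, 113 and 94.3 CPM in the same cells. Both B6_E10.5 and 129_E9.5 were thus above B6_E9.5 for Fos, Egr1 and Junb, and 129_E9.5 was the highest for Fos and Egr1. Atf3 stood at 30.3, 20.5 and 37.2 CPM in endothelial-marker cells, and 0 UMIs of it were found in the neural crest-marker and megakaryocyte-marker cells. A rule that asks for several markers favours deep cells: median depths of the endothelial-marker cells were 16611, 7575.5 and 8151 UMIs.

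**Figure D3:**
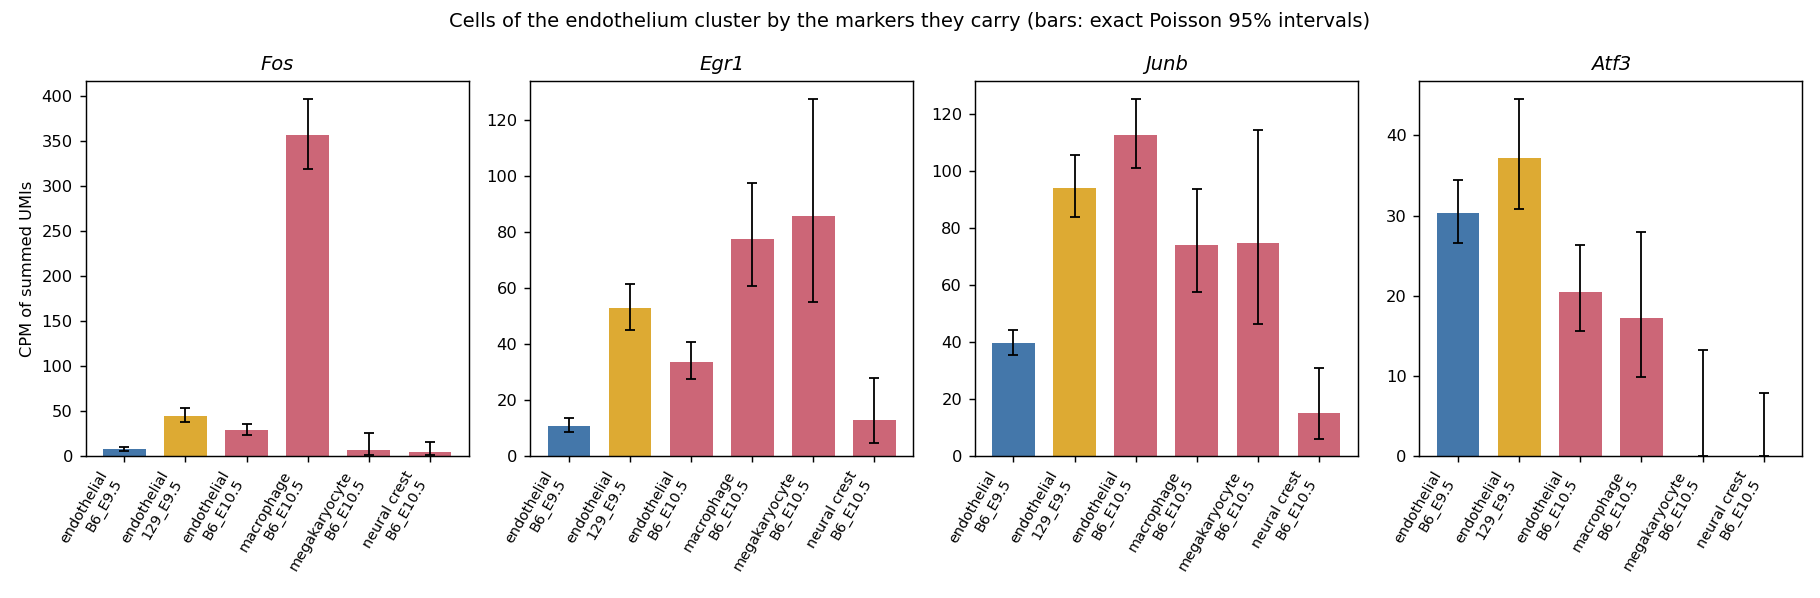
Bars give levels of 4 members (CPM) in parts of the endothelium cluster defined by markers of endothelium, macrophages, megakaryocytes and neural crest, in the libraries named, with exact 95% Poisson intervals. Macrophage-marker cells of B6_E10.5 stand at 356 CPM for Fos, and endothelial-marker cells at 7.28, 28.8 and 44.8 CPM across B6_E9.5, B6_E10.5 and 129_E9.5.

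The low Junb of E10.5 muscle progenitors was found in both of their states. Cells with a UMI of Myf5 or Myod1, the determination factors of the muscle lineage, numbered 846 in B6_E10.5 and had 2.49 CPM of Junb, and the 546 cells with Pax3 and neither factor had 3.80 CPM. At E9.5 no cell carried Myf5 or Myod1, and Pax3-positive cells stood at 65.6 CPM in B6_E9.5 and 75.0 CPM in 129_E9.5. Egr1 in the Pax3-positive cells was 39.1, 10.2 and 59.4 CPM across B6_E9.5, B6_E10.5 and 129_E9.5, again lowest at E10.5. In 129_E9.5, Pax3-positive cells had 127 CPM of Jun and 28.6 CPM of Fos, close to the whole cluster (126 and 27.0 CPM), which carried more neuron markers there. The part of those markers in the muscle result was not tested further.

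Within ectoderm the members were not spread evenly between the ridge and the dorsal and ventral faces of the bud. Fgf8 marks the apical ectodermal ridge, whose FGF signals drive outgrowth, Wnt7a the dorsal ectoderm and En1 the ventral ectoderm. Jun in Fgf8-positive cells was at 13.1, 70.4 and 60.5 CPM across B6_E9.5, B6_E10.5 and 129_E9.5, and in Wnt7a-positive cells without Fgf8 at 1.63, 3.38 and 10.0 CPM, on 3, 3 and 12 UMIs. Egr1 was at 12.3, 40.8 and 75.0 CPM in Fgf8-positive cells and at 20.7, 7.28 and 23.0 CPM in En1-positive cells without Fgf8. All ectodermal cells without an Fgf8 UMI had 11.6, 16.6 and 22.9 CPM of Jun and 14.9, 7.75 and 19.5 CPM of Egr1. Against all of these cells, Jun in the Fgf8-positive cells of B6_E9.5 was thus little higher. The ridge cells were thus the higher ones for Egr1 in B6_E10.5 and 129_E9.5 and not in B6_E9.5.

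To ask which members went with Fgf8 over the 3 libraries, cells with and without an Fgf8 UMI were summed per library and compared, in a comparison added after the data had been seen. Jun rose in Fgf8-positive cells (log2 fold change 1.33, SE 0.271, adjusted p = 0.0127 by edgeR's quasi-likelihood test, higher in 3 of 3 libraries), as did Jund (0.51, SE 0.124, adjusted p = 0.0281, 3 of 3) and Egr1 (1.37, SE 0.382, adjusted p = 0.0479, 2 of 3). These are 3 of the 6 members tested, where 6.29% of 10625 genes rose and 4.78% fell. Junb (0.80, adjusted p = 0.149), Ier2 (0.33, adjusted p = 0.178) and Fos (0.36, adjusted p = 0.589) did not pass. Without 129_E9.5 none of the 3 passed (adjusted p = 0.276 for Jun, 0.189 for Jund and 0.517 for Egr1), and DESeq2 gave 0.00388, 0.0545 and 0.426. Markers of several lists moved with Fgf8. Of 8 ridge markers tested 6 rose (Wnt5a, Dlx5, Dlx6, Msx2, Sp8 and Fgf9) and Bhlha9 fell by 1.96 on the log2 scale, the surface ectoderm list had 3 that rose and 7 that fell of 15, and of 11 limb mesenchyme markers 4 rose (Pdgfra by 2.70, Msx1 by 1.84, Tbx3 by 1.18 and Col1a2 by 1.02) and Prrx2 fell. Their part in the members' differences was not tested. Only these 3 libraries, of different strain or stage, stand behind each p-value. With library as block, it rests on how evenly the positive-negative difference held over them, with a variance estimate drawn partly from all genes tested. It does not measure the spread between embryos.

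In mesenchyme, Dusp6, a phosphatase induced by ERK that limits FGF signalling, was used in the same way, also after the data had been seen. Jun was lower in Dusp6-positive than in Dusp6-negative cells, at 10.0 and 17.3 CPM in B6_E9.5, 20.3 and 58.1 CPM in B6_E10.5, and 19.7 and 33.2 CPM in 129_E9.5. Junb was the reverse, at 12.4 against 6.06 CPM, 13.6 against 3.88 CPM and 21.1 against 15.4 CPM. The fall of Jun (log2 fold change -1.02, SE 0.136, adjusted p = 0.00680 by edgeR) and of Jund (-0.25, SE 0.042, adjusted p = 0.0192) and the rise of Junb (1.07, SE 0.206, adjusted p = 0.0286) passed, each in 3 of 3 libraries. Of 12743 genes 1.46% rose and 3.09% fell. Egr1 (0.56, adjusted p = 0.0559), Ier2 (0.21, adjusted p = 0.0780) and Fos (-0.27, adjusted p = 0.221) did not pass. Dusp6-positive cells were deeper, with medians of 17437 against 2592 UMIs, 7380.5 against 4528 and 8127 against 6519. With cells thinned to 2000 UMIs, Jun fell by 0.94 on the log2 scale (adjusted p = 0.00104), while Junb no longer passed (adjusted p = 0.0552, and 0.0652 by DESeq2). Other genes moved with this contrast: of mesothelium and flank markers 5 of 6 tested fell (Upk3b, Wt1, Gata4, Krt19 and Lrrn4), of SRF and YAP targets 5 of 14 fell, and of ERK feedback genes 4 of 12 rose (Il17rd, Spry4, Spry1 and Etv5). Their part in the members' differences was not tested. In B6_E10.5 Jun was also higher in cells with a UMI of Sox9, the regulator of cartilage (55.1 against 25.4 CPM), and Junb lower (5.02 against 12.0 CPM).

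Fos-positive cells, those with at least 1 Fos UMI, were then compared with the rest of their cluster to ask whether the other members went with Fos in the same cells. In mesenchyme Egr1 stood at 9.86 and 3.73 CPM in the positive and negative cells of B6_E9.5, at 4.74 and 1.34 CPM in B6_E10.5 and at 31.6 and 9.10 CPM in 129_E9.5. Jun stood at 39.0 against 11.7 CPM, 45.5 against 39.8 CPM and 62.3 against 22.1 CPM, so that the E10.5 library showed little of the difference. Fosb, on 8, 10 and 16 UMIs in the Fos-positive cells, was at 3.43 against 0.375 CPM, 9.49 against 0.413 CPM and 3.59 against 0.654 CPM. All 3 genes were higher in the Fos-positive cells of each library. Their log2 fold changes in edgeR's quasi-likelihood test were 1.68 for Egr1 (SE 0.167, adjusted p = 3.38e-11), 1.23 for Jun (SE 0.125, adjusted p = 5.69e-11) and 3.15 for Fosb (SE 0.441, adjusted p = 7.93e-07). Jund rose by less, 0.31 (SE 0.052, adjusted p = 2.95e-05, 3 of 3 libraries), and Junb by 0.50 (SE 0.141, adjusted p = 0.0382, 2 of 3). Atf3 (0.74, adjusted p = 0.494) and Ier2 (-0.00, adjusted p = 0.997) did not pass. That made 5 of 7 members tested, where 1.29% of 12438 genes rose and 1.16% fell.

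Fos-positive mesenchymal cells were deeper, with median UMIs of 18298, 7386 and 7728 across B6_E9.5, B6_E10.5 and 129_E9.5 where Fos-negative cells had 7926.5, 5409 and 7440. They numbered 140, 139 and 546. When cells were thinned before Fos was read, 21, 50 and 168 Fos-positive cells were left and none of the members passed. The calls of Jun (adjusted p = 0.534) and Junb (adjusted p = 1.0) were lost with DESeq2, and without 129_E9.5 those of Jund (adjusted p = 0.0691) and Junb (adjusted p = 0.993) were.

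Beside Egr1 and Jun, the 10 genes of smallest p that rose with Fos in mesenchyme were the following. Sparc, a matrix glycoprotein, rose by 1.42 on the log2 scale, Igfbp5, which binds insulin-like growth factors, by 1.30, the growth factor Ptn by 0.51, the BMP-responsive inhibitor Id3 by 0.46 and the WNT antagonist Sfrp1 by 0.91 (2 of 3 libraries). Ccn1, itself an immediate-early gene, rose by 0.85, the transcription factors Gata6 by 1.39 and Foxp1 by 0.94. Among 33 other immediate-early genes tested, 3 rose (Ccn1, Klf6 with 0.73 and Socs3 with 0.77) and 0 fell. Targets of SRF and YAP had 5 that rose of 14, the smooth-muscle and cytoskeletal genes Acta2 (1.37), Tagln (1.34), Tpm1 (0.38) and Myl9 and the YAP target Amotl2 (0.60), and 1 that fell, Actb (-0.27). Among the 10 of smallest p that fell were the Hox genes Hoxd11 (-0.70), Hoxa10 (-0.50) and Hoxa9 (-0.36), with Cdx1 (-0.87), Cbx3 (-0.29), Socs2 (-0.54), Nnat (-0.28), Eif4a1 (-0.20) and Actb. Rpgrip1 fell by 0.69, on the c57bl6.J libraries, since 129_E9.5 had under 1 CPM of it. Heat shock genes had 3 that fell of 18 (Hspa8, Hsp90aa1 and Hspe1) and 0 that rose, and ERK feedback genes 2 that fell of 13 (Spry2 and Etv4). Of 16 S phase genes 5 fell (Rrm2, Cdc6, Mcm7, Ung and Mcm3). Of the lists of the integrated stress response (10 tested), AP-1 partners (14), upstream kinases and SRF cofactors (21) and mitochondrial transcripts (13), 0 members passed in edgeR.

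Markers of neighbouring tissue moved with Fos in mesenchyme. Of 6 mesothelium and flank markers tested 4 rose (Hand1 1.93, Gata4 1.97, Upk3b 1.60 and Wt1 1.55), each in 2 of 3 libraries, and the keratins Krt8 (1.14) and Krt18 (0.93) of the surface ectoderm list rose too. Their part in the members' differences was not tested. None of the 10 endothelial markers tested passed, and of the macrophage and megakaryocyte lists 2 markers each were abundant enough to test and 0 passed.

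In ectoderm Egr1 was higher in Fos-positive cells. It stood at 29.0, 38.0 and 124 CPM in the Fos-positive cells from B6_E9.5, B6_E10.5 and 129_E9.5 and at 12.5, 14.6 and 34.1 CPM in the rest, higher in each library. The log2 fold change was 1.58 (SE 0.202, adjusted p = 3.74e-04 in edgeR), 1 of 5 members tested, where 0.0293% of 10224 genes rose and 0.00978% fell. Among the other genes called were Sfn, an epithelial 14-3-3 protein (0.52, adjusted p = 0.0413), and Actb, which fell (-0.26, adjusted p = 0.00802). Jun (0.95, adjusted p = 0.129, higher in 3 of 3 libraries), Ier2 (0.43, adjusted p = 0.0756, 3 of 3), Junb (1.04, adjusted p = 0.591) and Jund (0.33, adjusted p = 0.920) did not pass, no difference between members was tested, and Fosb and Atf3 had too few UMIs to be tested. Without 129_E9.5 the call of Egr1 was lost (1.25, adjusted p = 0.476), as it was in thinned cells (1.32, adjusted p = 0.999). Fos-positive ectodermal cells numbered 51, 51 and 94, with median depths of 12966, 6607 and 4990.5 UMIs, and Fos-negative cells had medians of 10192.5, 5697 and 4719 UMIs.

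In the endothelium cluster macrophage genes rose with Fos. The genes that rose were led by Tyrobp, Coro1a, Fcgr3, Lyz2, Rac2, Spi1, Irf8, Pycard, Csf1r and Cd68, all genes of myeloid and other white blood cells, with log2 fold changes of 1.80 to 3.73. All 6 macrophage markers tested rose, from 12 in the list. Of the leading genes, Tyrobp and Csf1r were higher in 2 of 3 libraries and had 0 UMIs in 129_E9.5. The others were higher in 3 of 3, though Lyz2 and Cd68 had only 6 UMIs each in the Fos-positive cells of 129_E9.5. The genes that fell included those of neural crest (Sox10 and Ngfr), platelets (Ppbp) and haemoglobin (Hbb-bh1 and Hba-a1). Others were Cdh6, Phactr1, Kcne3, Cadm1 and Sfrp1. Of the members, Fosb rose by 1.86 (SE 0.359, adjusted p = 0.0402) and Egr1 by 1.28 (SE 0.255, adjusted p = 0.0479), each in 3 of 3 libraries. They were 2 of 7 tested, where 0.776% of 9402 genes rose and 0.149% fell. Jun (0.33, adjusted p = 0.309), Junb (0.52, adjusted p = 0.124), Jund (0.29, adjusted p = 0.514), Ier2 (0.22, adjusted p = 0.660) and Atf3 (-0.03, adjusted p = 0.989) did not pass. Among other genes of the pathway, Btg2 rose (1.10), as did the bZIP genes Cebpb (1.93) and Maf (2.42).

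When only cells with endothelial markers were compared, 14 genes rose and 9 fell of 8678, and 4 of each were shared with the whole cluster. Egr1 rose by 0.97 (adjusted p = 8.46e-04) and Fosb by 1.76 (adjusted p = 0.0252) in these cells. In the whole cluster the call of Egr1 was lost without B6_E10.5 (adjusted p = 0.0917) and without B6_E9.5 (adjusted p = 0.151). Fos-positive cells of the whole cluster numbered 46, 146 and 93, with median depths of 18926.5, 8870 and 8803 UMIs, and the Fos-negative cells had medians of 6747.5, 5447 and 6952 UMIs.

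**Figure D4:**
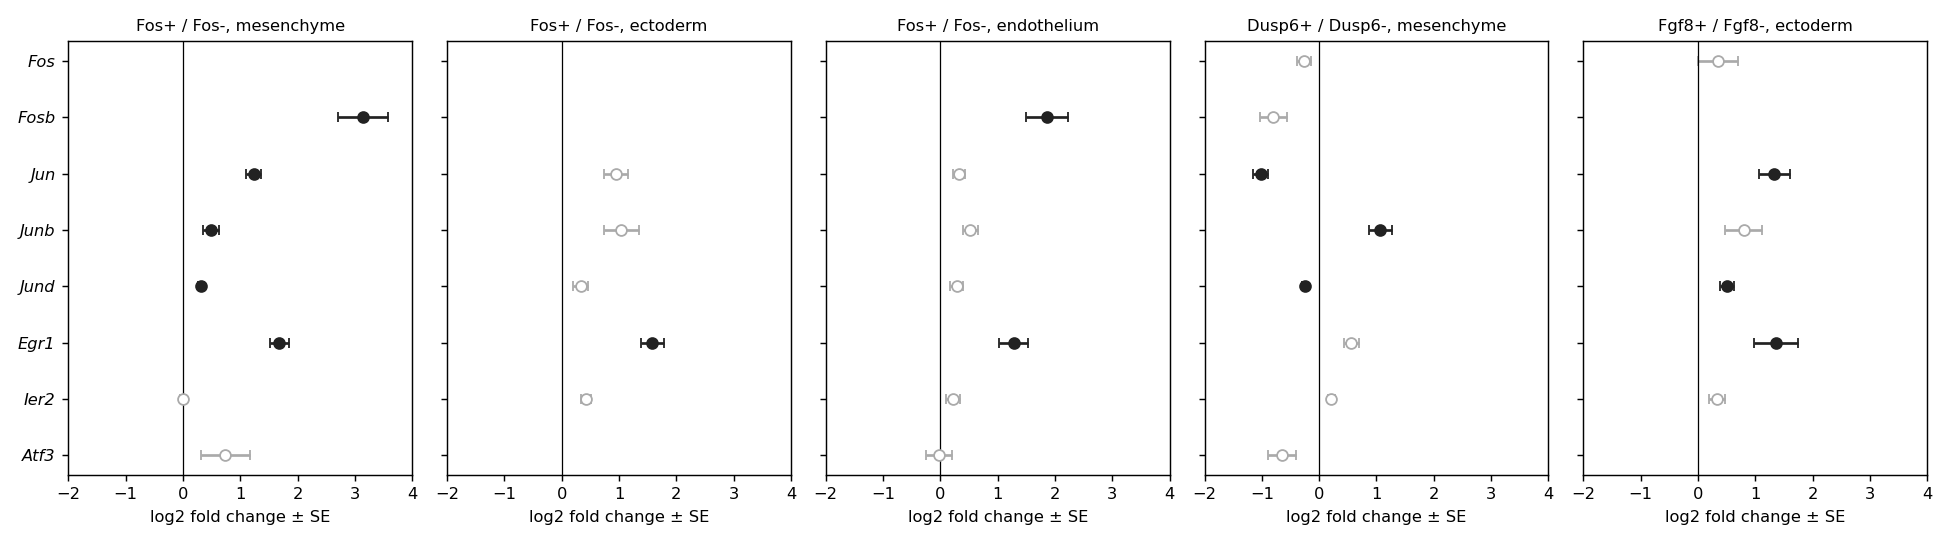
Log2 fold change of each member with its SE, positive over negative cells, for Fos in 3 clusters, Dusp6 in mesenchyme and Fgf8 in ectoderm, with filled points for adjusted p under 0.05 in edgeR. Egr1 is at 1.68, 1.58 and 1.28 in the Fos contrasts, and in Dusp6-positive mesenchyme Jun (-1.02) and Junb (1.07) lie on opposite sides of 0.

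Pairs of members in the same cell were counted with and without thinning. Without thinning, the odds ratio of having UMIs of both genes had an interval above 1 in 3 of 3 libraries for 20 of 28 pairs in endothelium, 7 of 28 in mesenchyme, 11 of 15 in ectoderm, 6 of 15 in muscle progenitors and 2 of 15 in erythroid cells. After thinning to 2000 UMIs, this held for 1 of 15 pairs in mesenchyme and for 0 in the other clusters. Jund and Ier2 in mesenchyme went from odds ratios of 7.44, 2.07 and 1.86 across B6_E9.5, B6_E10.5 and 129_E9.5 to 0.987, 0.973 and 0.935. Fos and Egr1 had odds ratios of 5.27, 4.25 and 3.78 in mesenchyme. After thinning, 129_E9.5 kept an odds ratio of 5.07 (2.71 to 8.86) on 15 cells positive for both, and the c57bl6.J libraries had 0 such cells. In the endothelium cluster of B6_E10.5 the thinned odds ratio of Fos and Egr1 was 4.91 (2.15 to 10.9). That cluster mixed macrophage-marker and endothelial-marker cells, which differed in the level of both genes. Pairs were not counted within each cell type, so the part of this mixture in the endothelial pairs was not tested.

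Levels also followed the depth and mitochondrial share of the cells, and did so unequally. In the mesenchyme of B6_E10.5, Jun fell from 65.8 CPM in cells under 2000 UMIs to 53.7, 21.4 and 19.0 CPM in cells of 2000 to 8000, 8000 to 16000 and at least 16000 UMIs. Jund in the same cells stayed between 241 and 276 CPM. In 129_E9.5, Fos went from 19.0 CPM (7 UMIs) through 12.2 and 7.42 to 4.22 CPM (13 UMIs), and in B6_E9.5 it lay between 0.759 and 1.80 CPM in each stratum. At 2000 to 8000 UMIs Fos was thus at 1.80, 1.53 and 12.2 CPM across B6_E9.5, B6_E10.5 and 129_E9.5. Depths were not matched within a stratum. By mitochondrial share, Jun in B6_E10.5 mesenchyme was at 23.7 CPM in cells under 2%, 35.9 CPM at 2 to 5% and 64.1 CPM over 5%. Fos in 129_E9.5 mesenchyme was at 2.41, 10.3 and 26.0 CPM, the last on 17 UMIs in 178 cells. The median mitochondrial share of mesenchyme was 3.32%, 3.74% and 2.67% across B6_E9.5, B6_E10.5 and 129_E9.5.

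**Figure D5:**
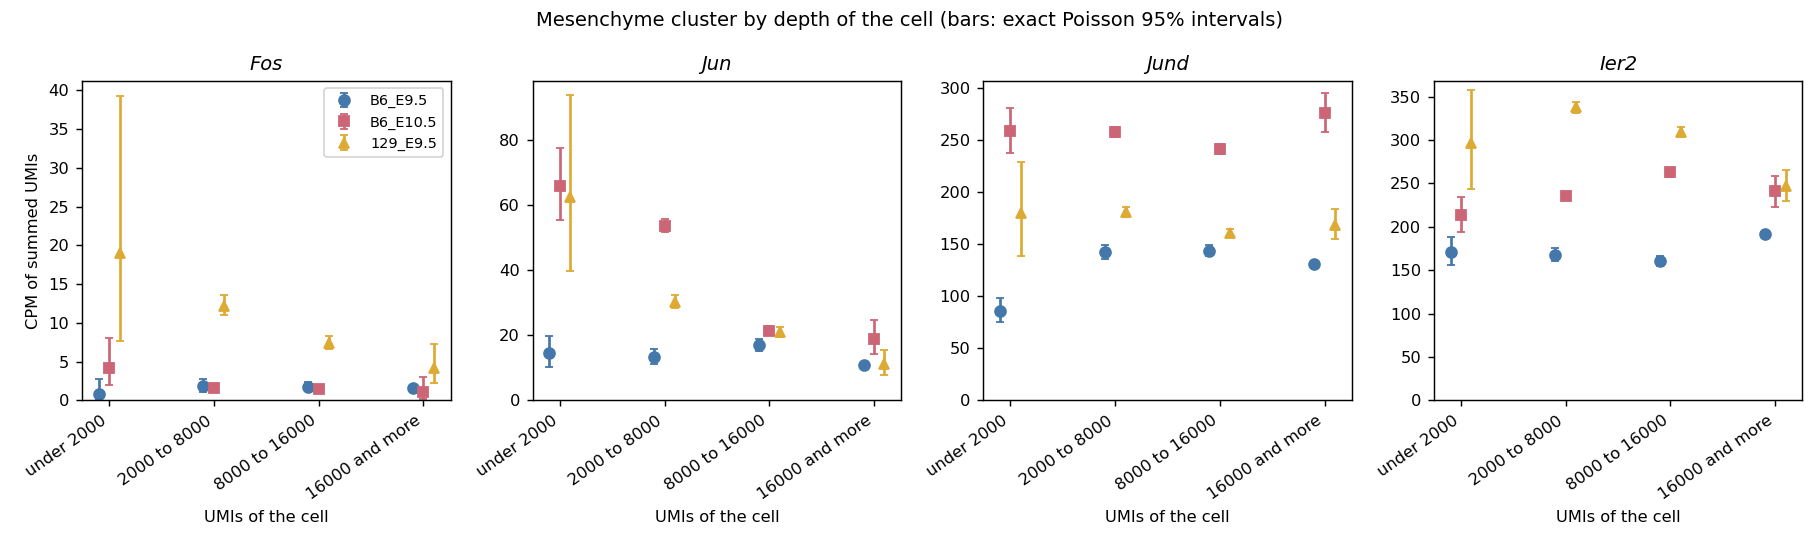
Levels of 4 members (CPM) in mesenchymal cells by UMIs per cell, with 1 point for each library and exact 95% Poisson intervals. Jun in B6_E10.5 goes from 65.8 to 19.0 CPM with depth, and Fos in 129_E9.5 from 19.0 to 4.22 CPM.

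Over the 15 sums of cluster and library, the genes most like Fos, by Pearson's r of log2(CPM + 1) among 7717 genes, were Egr1 (0.889), Syngr2 (0.832), Atp6v0b (0.819), Atp6v0e (0.809), Cr1l (0.808), Junb (0.807), Ndufa9 (0.804) and Nfkbib (0.789). So 2 of the 8 nearest were members, and the others are not immediate-early genes. Without the erythroid sums, 12 in number, Egr1 had an r of 0.879 and Junb 0.846. Fos and Jund had an r of 0.034, Jund and Ier2 0.788, and Fosb and Atf3 0.860. The sum of the members was most like Plod3 (0.950), Prkar1a (0.935), Pop7 (0.926), Brf1 (0.925), Commd7 (0.920), Acbd3 (0.920), Slc35b4 (0.919) and Pgs1 (0.919), and 0 of these are immediate-early genes. These sums share libraries and depth, so the values are a description.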

How the data were processed

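The authors deposited raw UMI counts in 1 matrix of 15122 genes and 43950 cells, not normalized, per the file headers. Cell Ranger 3 and the build mm10 are named in the submitters' processing notes, but no annotation release is. Stage, strain and cluster of each cell came from the authors' deposited table. Cells had 501 to 38723 UMIs and at most 10% mitochondrial UMIs, and no further filter or doublet caller was applied. Clusters were named from marker lists. Of the gene identifiers, 15119 were matched to a symbol in GENCODE M21. Members, gene lists and comparisons were chosen with earlier results of these data known.

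CPM values carry exact Poisson intervals, shares of cells exact Clopper-Pearson intervals and ratios exact conditional binomial intervals, all at 95% and for counting error only, and a count of 0 was set to 3. Cells were thinned to 2000 UMIs, or 1000 as an alternative. For Fos-positive against Fos-negative cells, counts were summed per library (6 sums) and tested with edgeR 4.0.16 in R 4.3.3 (quasi-likelihood test, TMM, filterByExpr, library as block, Benjamini-Hochberg adjustment over all genes tested, threshold 0.05). The gene that defined the cells was left out. The library block pairs the 2 sums of each library, which share a reaction. On simulated data this test recovered 75% of 2-fold and 89% of 4-fold changes among 12411 genes for mesenchyme, 56% and 82% among 10190 for ectoderm, and 62% and 89% among 9361 for endothelium. The simulation gave all genes the same dispersion. Apart from the changed genes, it gave positive and negative cells of a library the same profile. Recovery in the measured data was not assessed. Genes named were the 8 members, the 10 of smallest p in each direction, up to 4 per list and direction, and the 8 of highest correlation. Alternatives were DESeq2 1.42.0, other scalings and filters, thinning, cell subsets and leaving out each library. Subsets by marker genes and the Dusp6 and Fgf8 contrasts were added after the data had been seen. Single genes that passed a test but are left out of the text are not reported here.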

Additional observations from a re-analysis of the deposited data

Results flagged for a closer look

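Some members moved in opposite directions between stages in different clusters, each with a counting interval that excluded 1. With 1 library at each stage, the difference between clusters was not tested. The stage ratio of Fos (B6_E10.5 over B6_E9.5) was 8.86 in endothelium and 0.229 in erythroid cells, that of Egr1 3.53 and 0.126, that of Jun 3.22 in mesenchyme and 0.476 in erythroid cells, and that of Junb 2.14 in endothelium and 0.0467 in muscle progenitors. Beside the endothelial values, cells with endothelial markers alone gave 3.96 for Fos, 3.11 for Egr1 and 2.84 for Junb. Beside the erythroid values, TMM factors gave 0.368 for Fos, 0.203 for Egr1 and 0.766 for Jun, and the median depth of those cells was 735 UMIs in B6_E9.5 and 14608 UMIs in B6_E10.5. Markers of other classes in those cells also differed between the libraries, and their part was not tested.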

How the results depend on the processing

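For Fos-positive against Fos-negative mesenchyme, 160 genes rose and 144 fell in edgeR. These counts were 47 and 12 with DESeq2, 5 and 1 with thinned cells, and 89 and 73 among cells without markers of endothelium, macrophages or megakaryocytes. Genes that fell numbered 82 without TMM and 230 without a filter. Leaving out 1 library gave 72 to 231 and 36 to 200. In ectoderm, 3 rose and 1 fell. The counts were 11 and 18 without a filter, 7 and 0 in cells of good depth and mitochondrial share, 10 and 6 without markers of other cells, 0 and 0 when thinned, 0 that fell with DESeq2, and 0 to 21 and 0 to 8 without 1 library. In endothelium, 73 rose and 14 fell, against 46 and 3 with DESeq2, 303 and 95 without a filter, 16 and 1 when thinned, 14 and 9 with endothelial-marker cells only, and 25 to 323 and 12 to 88 without 1 library. Without the replicate block, which pairs the sums of a library, 0 rose and 0 fell in each of the 3 clusters, while at an unadjusted p under 0.05 the blocked edgeR test had 620 and 924 in mesenchyme, 261 and 278 in ectoderm and 527 and 280 in endothelium.

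Members at least 2-fold apart by stage numbered 1, 2, 3 and 5 in mesenchyme, ectoderm, muscle progenitors and erythroid cells when at least 10 CPM was asked for, and by strain 1, 3, 2, 3 and 2 in mesenchyme, ectoderm, muscle progenitors, endothelium and erythroid cells. The shares of all genes at 10 CPM are given with the ratios above. With TMM and the 50 CPM level, such members numbered 0 in ectoderm by stage, where 3.69% of all genes were counted either way. By strain they numbered 0 in endothelium (5.19% of all genes) and 2 in erythroid cells (12.7%). With at most 5% mitochondrial UMIs ectoderm had 0 by stage (3.69% of all genes). Without haemoglobin and mitochondrial genes erythroid cells had 3 by strain (11.5%). Endothelial-marker cells had 1 by stage (4.06%) and 2 by strain (5.42%). Pairs above 1 in each library numbered 1, 0, 0, 0 and 0 after thinning.

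Values that changed sign were Ier2 in Fos-positive mesenchyme (-0.00, and 0.031 without TMM, 0.049 without markers of other cells and -0.026 to 0.02 without 1 library), Atf3 in endothelium (-0.03, and 0.57 thinned, 0.028 in cells of good quality and -0.214 to 0.24 without 1 library), Fos by Dusp6 (0.20 thinned) and Fos by Fgf8 (-0.32 to 0.892 without 1 library). Pdgfra (-0.26 thinned), Pax1 (-0.12 without markers of other cells) and Hbb-bs (-0.46 to 0.822 without 1 library) did so as well. Erythroid Jund by stage was at 1.24 with TMM and 1.07 without haemoglobin and mitochondrial genes. The cause of these changes was not tested. Of 188 alternative values of members in the Fos contrasts, 147 kept direction and call, 27 lost the call, 8 gained it and 6 changed sign. Only members that had passed could lose the call, and the 147 include members that passed in neither setting.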
